A study of Mus musculus with 24 samples.

Results

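The comparison is of striatum with cortex in wild-type mice aged 12 weeks, in 6 of the 24 mRNA sequencing libraries of a study of R6/2 mice, a transgenic model of Huntington's disease. The members were taken by their labels: 3 libraries of striatum and 3 of cortex from wild-type littermates of R6/2 mice on a C57Bl/6 / CBA background. None of the 6 carried the transgene, no treatment is named, and the labels do not say how the tissue was dissected or whether each library was a separate animal, so p-values measure only the spread between these libraries, which may be technical. Of 18669 genes in the files, 11715 had a mean RPKM (the read count divided by gene length in kilobases and by library size) of at least 0.5 over the 6 libraries and were tested. The same contrast in the 3 and 3 wild-type libraries of 8 weeks serves below as a comparison with other samples.

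Cortex and striatum are built from different neurons. Most neurons of the striatum are GABA-releasing projection neurons that read dopamine and glutamate input through a dense cyclic AMP pathway. They fall into a direct pathway, marked by the dopamine receptor Drd1 and the peptides substance P and dynorphin, and an indirect pathway, marked by Drd2, enkephalin and the adenosine receptor Adora2a. Most neurons of the cortex are glutamate-releasing pyramidal cells stacked in layers, and both tissues hold interneurons, glia and vessels. In bulk tissue, fewer cells of a type and less RNA per cell cannot be told apart, and this holds for every result below.

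The libraries held 12863515 to 26508946 counts in genes. The first principal component of the expressed genes (62.5% of the variance) separated the tissues, with cortex at -54.6, -43.5 and -46.8 and striatum at 14.3, 89.6 and 41.0. Striatum replicate 1 lay nearest to cortex and striatum replicate 2 farthest. Replicate 2 also had the fewest genes with a count (12636 against 13893 to 14626 in the other 5) and the strongest relation between its deviation from the mean and the GC content of genes (correlation -0.52 across genes, against -0.15 to 0.46). The defining genes of each tissue went with the labels: Ppp1r1b, Drd1 and Adora2a were higher in each striatal library than in any cortical one, and Slc17a7 and Tbr1 in each cortical one. The title numbers of the striatal and cortical samples do not overlap and lie in separate ranges. The labels do not say what the numbers mark or whether the tissues came from the same animals. A difference that goes with these numbers therefore cannot be told apart from a difference between the tissues.

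Between the tissues 1186 genes were higher in striatum (10.1% of the genes tested) and 1166 lower (9.95%; 20.1% in either direction) at an adjusted p under 0.05, in the edgeR quasi-likelihood test with Benjamini-Hochberg adjustment over all genes tested. The median log2 difference, striatum over cortex, was 0.02, with quartiles at -0.45 and 0.47. Differences of at least 4-fold were called for 187 genes higher in striatum and 214 lower, and differences of at least 16-fold for 29 and 17. In 19.0% of genes the 3 striatal libraries all lay above the 3 cortical ones, in 19.7% all lay below, and so 38.6% of genes had groups that did not overlap. The counts of calls changed with the library left out. Where they fell, the smaller group and the library itself cannot be told apart. Without cortex replicate 1 they were 360 higher and 369 lower, without cortex replicate 2 655 and 613, without cortex replicate 3 489 and 564, without striatum replicate 2 1545 and 1806, and without striatum replicate 3 575 and 557. Genes higher in striatum had a median GC content of 45.8% and genes lower one of 53.5%, against 49.8% over all genes tested, and the part of GC content in these calls was tested only by removing the trends with GC content and gene length together (1646 higher and 1153 lower). Of the 1186 higher and 1166 lower genes, 1009 and 886 kept their call there. Of 238 genes called among those named by rule or listed for a cell type or pathway, 145 kept their call with each of the 6 libraries left out in turn. Where the text states a call that did not, the largest of its 6 adjusted p-values is given after the words up to, with the library left out. Values in parentheses after a gene are log2 differences, striatum over cortex. Each count of list members below stands beside 10.1% of all genes higher and 9.95% lower.

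The largest rises took in genes of very different function. Gpx6, a glutathione peroxidase, stood at 10.1, 2.32 and 12.4 RPKM in the 3 striatal libraries and 0.0180, 0.179 and 0.244 RPKM in cortex (log2 difference 5.82, SE 0.79, adjusted p = 0.0016). Nexn, an actin-binding protein best known from muscle, stood at 110.1, 119.7 and 137 RPKM in striatum and 1.02, 1.82 and 4.21 RPKM in cortex (log2 difference 5.78, SE 0.51, adjusted p = 0.000181). Cd4, the T cell co-receptor, stood at 29.0, 15.8 and 38.9 RPKM in striatum and 0.790, 0.538 and 1.26 RPKM in cortex (log2 difference 5.04, SE 0.37, adjusted p = 8.57e-05). All 12 were chosen among called genes whose groups did not overlap, so that separation is no separate result. For Gpx6 the striatal library with the least RNA was replicate 2. Others of the 12 were the tryptophan-degrading enzyme Ido1 (5.48 log2), the transcription factor Isl1 (4.76), the protease inhibitor Serpina9 (4.67), the transcription cofactor Dach1 (4.54), the transporter Slc35d3 (4.52), the calcium-activated chloride channel Ano2 (4.43), Adora2a (4.37) and Drd1 (4.35). In cortex 8 of the 12 had a mean below 1 RPKM, from 0.147 RPKM for Gpx6 to 0.991 RPKM for Slc35d3.

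The largest falls were genes with little RNA in striatum. Grp, the precursor of gastrin-releasing peptide, stood at 0.199, 0 and 0.317 RPKM in striatum and 5.26, 4.74 and 7.86 RPKM in cortex (log2 difference -5.02, SE 0.71, adjusted p = 0.00201). Tafa1, a secreted chemokine-like protein, stood at 0.586, 0.179 and 0.485 RPKM in striatum and 11.1, 10.1 and 7.80 RPKM in cortex (log2 difference -4.53, SE 0.34, adjusted p = 0.0001). Coro6, a coronin of the actin cytoskeleton, stood at 1.54, 0.849 and 1.01 RPKM in striatum and 24.4, 15.8 and 20.2 RPKM in cortex (log2 difference -4.10, SE 0.28, adjusted p = 5.86e-05). No striatal library reached the lowest cortical one for any of the 3, which the rule that chose these genes required. The others of the 12 were Vwa5b2 (-4.52 log2), Adcyap1, which encodes the peptide PACAP (-4.27), the kinase Rskr (-4.18), the Ras exchange factor Rasgrf2 (-4.03), the hexokinase-like Hkdc1 (-3.91), the noradrenaline receptor Adra1d (-3.69), the adhesion protein Igsf9b (-3.65, adjusted p up to 0.0612 without cortex replicate 1), the synaptotagmin Syt17 (-3.65) and the transcription factor Bhlhe22 (-3.6).

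Genes shared by both kinds of striatal projection neuron were higher in striatum: all 26 with a row in the files passed the test, where 10.1% of all genes did, and their median log2 difference was 2.96, with 0.02 for all genes. Ppp1r1b, which encodes the phosphatase inhibitor DARPP-32, stood at 1552, 481 and 1723 RPKM in striatum and 63.9, 62.9 and 99.3 RPKM in cortex (log2 difference 4.04, SE 0.39, adjusted p = 0.000263). Scn4b, a sodium channel beta subunit, stood at 439.7, 287 and 467 RPKM in striatum and 27.5, 25.7 and 25.2 RPKM in cortex (log2 difference 3.96, SE 0.20, adjusted p = 3.31e-05). The cortical libraries were close together for Scn4b, and striatum replicate 2 was the lowest striatal library for both genes. Pde10a, a phosphodiesterase that degrades cyclic nucleotides, stood at 124, 134 and 156 RPKM in striatum and 12.3, 8.80 and 19.6 RPKM in cortex (log2 difference 3.44, SE 0.30, adjusted p = 0.000181). Replicate 2 was not the lowest for Pde10a, so the order of the striatal libraries changed from gene to gene. Rgs9, a regulator of G proteins, and Syndig1l, a synaptic membrane protein, differed by 3.79 and 4.14. The differences of the 26 genes ran from 0.63 for the calcium release channel Ryr1 to 5.48 for Ido1. Ryr1 was the smallest and least secure of them, at 3.27, 3.07 and 3.06 RPKM in striatum and 2.14, 2.08 and 2.15 RPKM in cortex (adjusted p = 0.0484, up to 0.179 without cortex replicate 1). The summed level of the 26 genes was 5349 to 8560 RPKM in striatum and 1051 to 1345 RPKM in cortex, and none was at 0 in any cortical library. Without striatum replicate 1 all 26 stayed called, and without replicate 2 it was 25.

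Genes of the direct pathway were higher in striatum in 8 of 9 cases (median 3.35). Drd1 stood at 69.7, 83.8 and 107 RPKM in striatum and 5.11, 3.79 and 4.65 RPKM in cortex (log2 difference 4.35, SE 0.26, adjusted p = 4.53e-05). Pdyn, the dynorphin precursor, stood at 45.9, 40.2 and 48.2 RPKM in striatum and 9.63, 7.15 and 6.02 RPKM in cortex (log2 difference 2.62, SE 0.24, adjusted p = 0.000194). The striatal values of both genes lay well clear of the cortical ones. Isl1, a transcription factor of direct pathway neurons, stood at 4.86, 10.5 and 9.16 RPKM in striatum and 0.337, 0.300 and 0.342 RPKM in cortex (log2 difference 4.76, SE 0.43, adjusted p = 0.000181). The muscarinic receptor Chrm4 differed less (1.41, SE 0.20), and the mitochondrial transporter Sfxn1 least of those called (0.81, SE 0.25, adjusted p = 0.0447, up to 0.163 without cortex replicate 1). Eya1, a transcription cofactor, was the member that did not pass (0.32, SE 0.31), with overlapping libraries.

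Genes of the indirect pathway were higher in striatum in 5 of 7 tested (median 4.08). Penk, the enkephalin precursor, stood at 1302, 696 and 1469 RPKM in striatum and 69.7, 39.8 and 101 RPKM in cortex (log2 difference 4.08, SE 0.34, adjusted p = 0.000156). Drd2 stood at 66.9, 23.5 and 58.2 RPKM in striatum and 3.49, 1.89 and 5.90 RPKM in cortex (log2 difference 3.73, SE 0.42, adjusted p = 0.000567). Adora2a stood at 96.8, 61.3 and 111 RPKM in striatum and 4.32, 2.01 and 7.16 RPKM in cortex (log2 difference 4.37, SE 0.40, adjusted p = 0.000206). Striatum replicate 2 was the lowest striatal library for all 3, by the most for Drd2, and still lay above every cortical library. The orphan receptor Gpr6 (4.20, SE 0.39) and the pyrimidine catabolic enzyme Upb1 (4.62, SE 0.86) passed too, while Plxdc1 (-0.39, SE 0.34) and the phosphatase Ptprm (0.03, SE 0.18) did not. Sp9 was listed at 0 in all 6 libraries. Relative to the sum of both receptors, Drd1 made up 51.0%, 78.1% and 64.8% of the RPKM in the striatal libraries (64.7% ± 13.6, SD, n = 3), and 56.8% ± 11.5 in cortex. The spread between libraries was larger than the difference between the tissues.

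**Figure D1:**
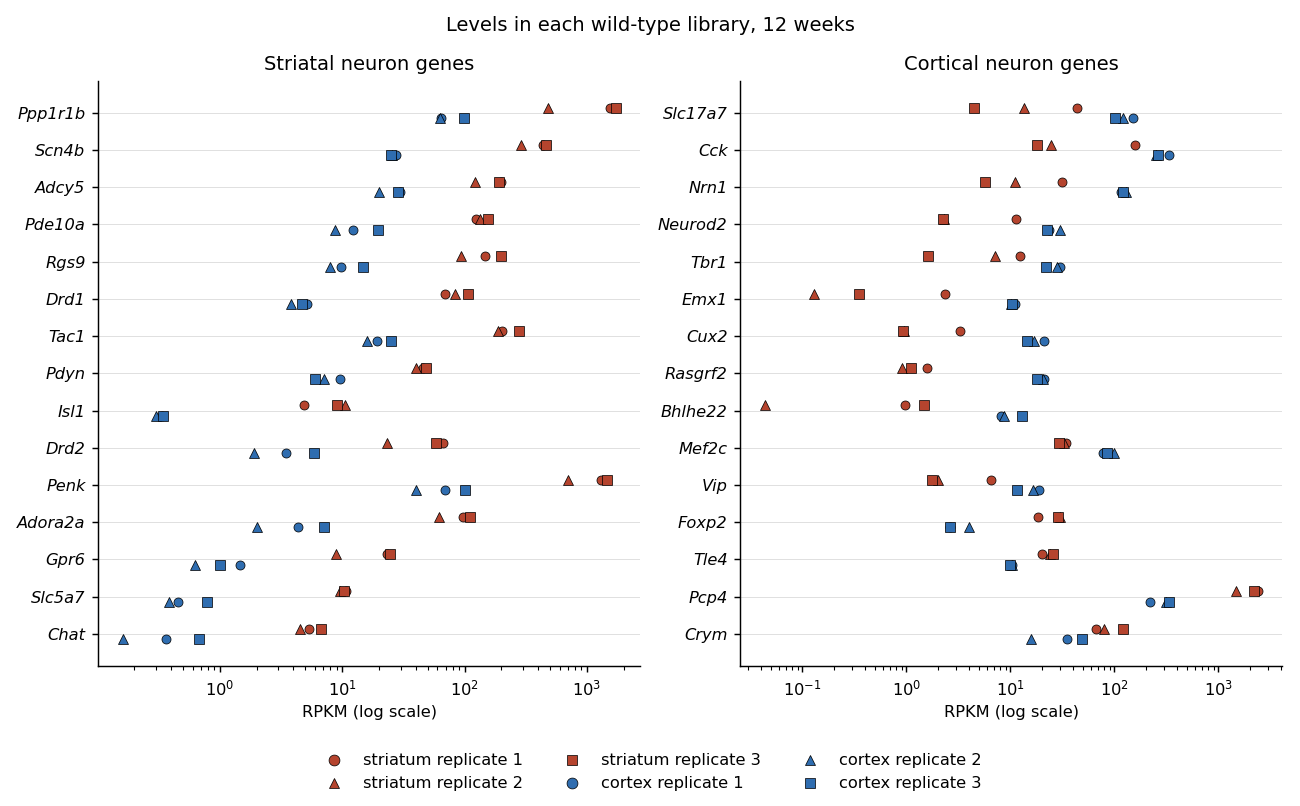
RPKM on a log axis of 15 genes of striatal neurons (left) and 15 genes from the cortical lists (right) in each of the 6 libraries, with red for striatum, blue for cortex and a marker shape for each replicate. On the left every striatal point lies to the right of every cortical point of its gene. On the right striatum replicate 1 (red circle) is the highest striatal library for Slc17a7, Cck, Nrn1 and Neurod2, and Foxp2, Tle4, Pcp4 and Crym lie higher in striatum.

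Cholinergic interneurons are few in striatum and supply it with acetylcholine. Of 5 of their genes tested 4 were higher in striatum (median 3.86), and Gbx2 and Ngfr lay under the RPKM minimum. The choline transporter Slc5a7 stood at 10.8, 9.65 and 10.4 RPKM in striatum and 0.459, 0.384 and 0.789 RPKM in cortex (log2 difference 4.31, SE 0.30, adjusted p = 5.86e-05). Chat, which makes acetylcholine, stood at 5.37, 4.49 and 6.76 RPKM in striatum and 0.366, 0.161 and 0.673 RPKM in cortex (log2 difference 3.86, SE 0.45, adjusted p = 0.000643). The 3 striatal values of each gene lay close together and the cortical ones were below 1 RPKM. The transcription factor Lhx8 (4.32, SE 0.59) and the vesicle transporter Slc18a3 (3.33, SE 0.60) passed as well. Ache, which breaks acetylcholine down, did not pass (12.0 ± 4.54 against 11.9 ± 3.38 RPKM, mean ± SD, n = 3).

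Genes of cortical excitatory neurons were lower in striatum in 10 of 16 cases (9.95% of all genes were lower), with a median of -1.67. Slc17a7, the vesicular glutamate transporter of cortical neurons, stood at 44.1, 13.6 and 4.51 RPKM in striatum and 152, 122 and 102 RPKM in cortex (log2 difference -2.60, SE 0.61, adjusted p = 0.0173, up to 0.0741 without cortex replicate 1). Nrn1, a neurite growth protein, stood at 31.5, 11.0 and 5.67 RPKM in striatum and 117, 129.6 and 121 RPKM in cortex (log2 difference -2.94, SE 0.49, adjusted p = 0.00394). Emx1, a transcription factor of the pallium, stood at 2.34, 0.129 and 0.350 RPKM in striatum and 11.1, 10.2 and 10.4 RPKM in cortex (log2 difference -3.54, SE 0.71, adjusted p = 0.0094). For these 3 genes the cortical libraries lay close together, the striatal ones differed by several-fold, and striatum replicate 1 was the highest of them. Rasgrf2 did not share that spread, at 1.57, 0.908 and 1.10 RPKM in striatum and 21.1, 20.6 and 17.9 RPKM in cortex (log2 difference -4.03, SE 0.23, adjusted p = 4.3e-05). Rtn4r, a receptor that limits neurite growth (-3.32, SE 0.63), Mef2c, a transcription factor (-1.37, SE 0.22), and Neurod2 (-2.30, SE 0.52, adjusted p up to 0.055 without cortex replicate 1) were lower too, as was the pentraxin Nptx1 (-1.47, SE 0.38, up to 0.0929 without cortex replicate 1). Neurod6 was below every cortical library without passing (-1.34, SE 0.46). Nrgn, Ptk2b, Kcnh3 and Sv2b did not pass either (from -0.57 to 0.01). Without striatum replicate 1 the list had 11 members lower and a median of -2.08, without replicate 2 13 lower, and without cortex replicate 1 or 2 5 lower. The part of the higher levels in striatum replicate 1 in these results was not tested beyond leaving that library out.

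Genes named for single cortical layers did not follow the pyramidal genes as a block. Cux2, a transcription factor of upper layers, stood at 3.29, 0.954 and 0.938 RPKM in striatum and 21.1, 16.7 and 14.4 RPKM in cortex (log2 difference -3.34, SE 0.42, adjusted p = 0.00104). Calb1, a calcium-binding protein on the same list, went the other way, at 70.3, 95.2 and 97.1 RPKM in striatum and 26.5, 28.6 and 26.1 RPKM in cortex (log2 difference 1.78, SE 0.25, adjusted p = 0.00193). Of the 10 upper layer genes 5 were lower and 1 higher (3 lower without cortex replicate 1 or 2), among them Otof, an exocytosis protein (-1.20, SE 0.25, up to 0.0693 without cortex replicate 1), and the adhesion protein Mdga1 (-1.10, SE 0.28, up to 0.103 without cortex replicate 1). Among 8 genes of the fifth layer the 2 that passed were both higher in striatum (1 without cortex replicate 1, cortex replicate 2 or striatum replicate 3). They were Pcp4, a calmodulin regulator, at 2401, 1493 and 2201 RPKM in striatum and 219, 316 and 339 RPKM in cortex (log2 difference 2.82, SE 0.24, adjusted p = 0.000157), and the thyroid hormone binding protein Crym (1.52, SE 0.37, adjusted p up to 0.0907 without cortex replicate 1). Among 9 genes of the sixth layer and subplate, Foxp2 (3.14, SE 0.35), the synaptotagmin Syt6 (2.08, SE 0.20) and the co-repressor Tle4 (1.26, SE 0.22) were higher and Tbr1 was lower (-1.87, SE 0.55, adjusted p up to 0.13 without cortex replicate 1). Without striatum replicate 1, 3 genes of the fifth and 5 of the sixth layer list were lower. Without any 1 of the cortical libraries none of the sixth was, so these counts changed with the library left out. Without striatum replicate 2, 1 gene of the fifth layer list was lower. Pcp4, Foxp2 and Calb1 are known to be expressed in striatal projection neurons too.

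**Figure D2:**
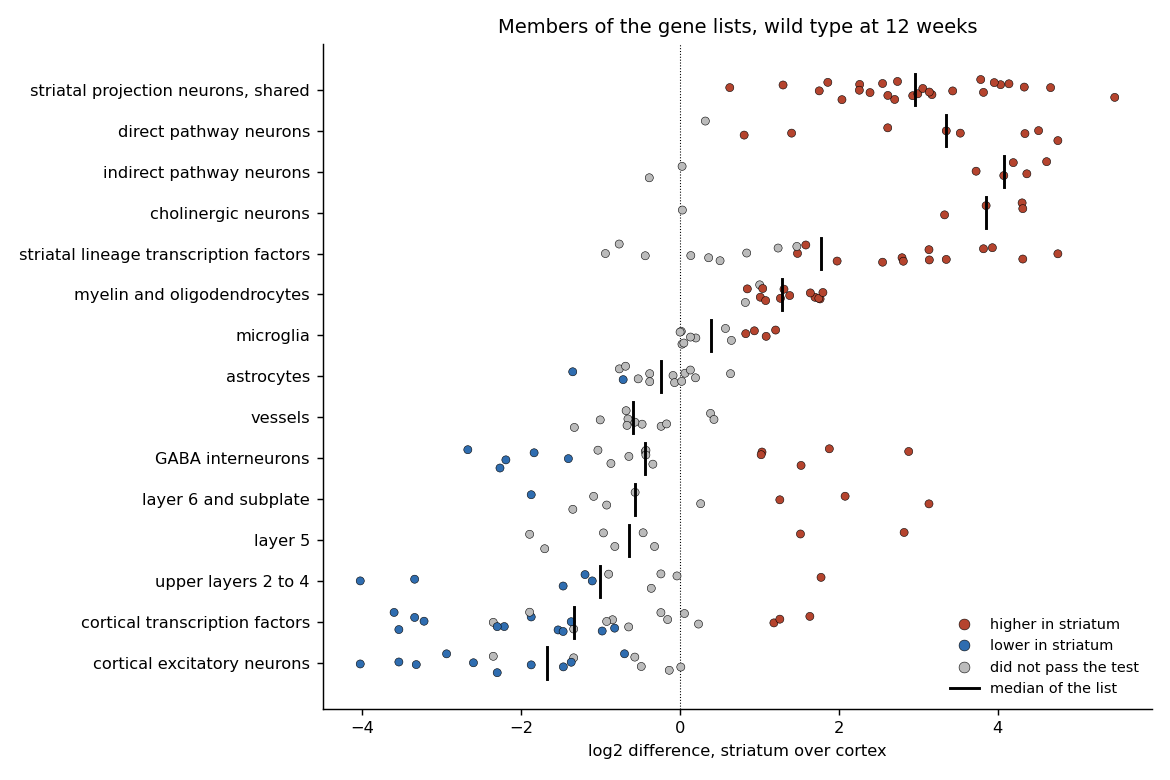
Log2 difference, striatum over cortex, of each tested member of 15 gene lists, with red and blue for members that passed the test and grey for those that did not, and a black bar at the list's median. The medians run from 4.08 for indirect pathway genes down to -1.67 for cortical excitatory neurons, and the cortical layer lists hold members on both sides of 0.

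Transcription factors of the developing striatum stayed higher in the adult tissue in 13 of 22 cases (median 1.78). Rarb, a retinoic acid receptor, stood at 33.7, 41.7 and 48.1 RPKM in striatum and 3.23, 2.48 and 3.55 RPKM in cortex (log2 difference 3.82, SE 0.26, adjusted p = 5.86e-05). Foxp2 stood at 18.2, 29.8 and 28.7 RPKM in striatum and 2.65, 3.98 and 2.61 RPKM in cortex (log2 difference 3.14, SE 0.35, adjusted p = 0.000544). Six3 stood at 19.0, 4.33 and 18.3 RPKM in striatum and 0.555, 0.773 and 1.35 RPKM in cortex (log2 difference 3.94, SE 0.51, adjusted p = 0.00124). All 3 were separated by tissue, with striatum replicate 2 low for Six3 alone. Among the Dlx genes Dlx6 passed (2.81, SE 0.34), Dlx5 did not (1.47, SE 0.52), and Dlx1 (0.14, SE 0.36) and Dlx2 (0.36, SE 0.40) were near 0. Foxp1 (1.59, SE 0.18), Bcl11b (2.55, SE 0.22), Meis1 (1.98, SE 0.26), Meis2 (1.48, SE 0.21), Zfp503 (2.80, SE 0.32) and Ebf1 (3.35, SE 0.54) were higher, and Foxp4 (-0.94, SE 0.42), Lhx6 (-0.44, SE 0.37) and Sp8 (-0.76, SE 0.80) did not pass. Rarb and its partner Rxrg (3.14, SE 0.46) belong to retinoid signalling, and with the binding protein Crabp1 (3.23, SE 0.52) they were the 3 of its 15 tested genes that passed, where 10.1% of all genes were higher (7 higher without striatum replicate 2). Without striatum replicate 1, 2 retinoid genes and 1 factor of the developing striatum were lower, and the median of the retinoid list went from 0.46 to 0.09. Rara and Rxra, receptors of the same families, did not pass (-1.10 and 0.09).

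Transcription factors of the developing cortex were lower in striatum in 12 of 25 cases and higher in 3 (median -1.34; 16 lower without striatum replicate 2, 8 without cortex replicate 1). Satb1, a chromatin organiser, stood at 2.14, 1.43 and 0.970 RPKM in striatum and 7.85, 7.09 and 6.85 RPKM in cortex (log2 difference -2.21, SE 0.28, adjusted p = 0.00112). Neurod1 stood at 0.186, 0.695 and 0.220 RPKM in striatum and 2.93, 4.91 and 3.35 RPKM in cortex (log2 difference -3.22, SE 0.61, adjusted p = 0.00702), and did not pass in a fit over all 12 wild-type libraries (adjusted p = 0.106). Bhlhe22 stood at 0.961, 0.0436 and 1.48 RPKM in striatum and 8.20, 8.60 and 12.8 RPKM in cortex (log2 difference -3.6, SE 0.70, adjusted p = 0.00795). The groups did not overlap for these genes, and the highest striatal library was replicate 1 for Satb1, replicate 2 for Neurod1 and replicate 3 for Bhlhe22. Sox5 was lower as well (-1.53, SE 0.30). The LIM-only pair went apart, with Lmo3 higher (1.18, SE 0.22, adjusted p = 0.0729 in the fit over all 12 wild-type libraries) and Lmo4 lower (-0.98, SE 0.19, adjusted p up to 0.0518 without cortex replicate 1). Pou3f1, a POU-domain factor, was higher (1.64, SE 0.39, up to 0.0992 without cortex replicate 1). Pax6, Emx2 and Pou3f3 did not pass (-0.65, 0.23 and 0.06).

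Peptide precursors showed some of the widest contrasts between the tissues, and 5 of 19 were higher in striatum and 4 lower (median -0.64; 7 lower without striatum replicate 2). Tac1, the substance P precursor of the direct pathway, stood at 203, 188 and 276 RPKM in striatum and 19.1, 15.97 and 25.2 RPKM in cortex (log2 difference 3.53, SE 0.24, adjusted p = 5.86e-05). Cck, the cholecystokinin precursor of cortical neurons, stood at 159, 24.5 and 17.9 RPKM in striatum and 336, 254 and 266 RPKM in cortex (log2 difference -2.13, SE 0.64, adjusted p = 0.0423, up to 0.138 without cortex replicate 1). Striatum replicate 1 held most of the striatal Cck RNA, as it did for Slc17a7. Penk, Pdyn, the neurotensin precursor Nts (2.44, SE 0.45) and the granin Scg2 (1.10, SE 0.20) were the others higher, and Grp, Adcyap1 and Vip (-2.19, SE 0.43) the others lower. The interneuron peptides Sst (-1.03, SE 0.47) and Npy (-0.64, SE 0.35) did not pass, and their libraries overlapped.

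Tac1 and Cck share a sequence element despite their opposite distributions, and for this reason the 250 bases before their start sites are shown (RefSeq, GRCm38.p6, 5′ to 3′ on the gene's strand). The capitals mark TGCGTCA, a variant of the cyclic AMP response element, found here on the strand shown. The Tac1 window is chr6:7554811-7555060 on the plus strand and the Cck window chr9:121495695-121495944 on the minus strand.
Tac1: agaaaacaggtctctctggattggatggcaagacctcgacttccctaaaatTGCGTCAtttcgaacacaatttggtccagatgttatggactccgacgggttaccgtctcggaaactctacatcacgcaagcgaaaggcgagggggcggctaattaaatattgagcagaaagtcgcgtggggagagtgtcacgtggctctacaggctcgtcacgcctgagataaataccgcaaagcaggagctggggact
Cck: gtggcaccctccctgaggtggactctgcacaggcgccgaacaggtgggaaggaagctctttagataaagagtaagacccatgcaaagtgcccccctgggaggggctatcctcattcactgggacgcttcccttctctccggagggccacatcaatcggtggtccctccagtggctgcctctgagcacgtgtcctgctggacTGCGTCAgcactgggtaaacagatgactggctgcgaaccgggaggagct
The element begins 199 bases before the start of Tac1 and 49 bases before that of Cck. Neither TGCGTCA nor the palindrome TGACGTCA contains the other on either strand. Searched on both strands, TGCGTCA occurred in 1.75% of all 32851 windows of this length. Among genes with a window it occurred in 3.43% of those tested, 3.28% of those higher in striatum and 3.71% of those lower. TGACGTCA occurred in 1.55% of all windows, in 3.11% of genes tested, 2.43% of those higher and 2.59% of those lower. A match is a description of the letters, not a site.

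Receptors for peptides divided as well, with 4 of 18 higher in striatum and 7 lower (median -0.52). Without cortex replicate 1 or 2 these were 2 and 2, and without cortex replicate 3 2 and 3. Tacr1, the substance P receptor, stood at 7.51, 6.54 and 7.84 RPKM in striatum and 0.843, 0.491 and 0.938 RPKM in cortex (log2 difference 3.34, SE 0.26, adjusted p = 0.000106). Cckbr, a cholecystokinin receptor, stood at 5.24, 3.69 and 2.39 RPKM in striatum and 26.7, 18.1 and 13.4 RPKM in cortex (log2 difference -2.30, SE 0.34, adjusted p = 0.00224). Tacr3, a relative of Tacr1, was higher (2.83, SE 0.60, up to 0.0659 without cortex replicate 1) and the neuropeptide Y receptor Npy1r lower (-1.58, SE 0.37, up to 0.0856 without cortex replicate 1). Crhr1, a receptor for corticotropin-releasing hormone, stood at 1.35, 1.37 and 1.59 RPKM in striatum and 10.1, 5.56 and 4.76 RPKM in cortex (log2 difference -2.17, SE 0.33, adjusted p = 0.00254). Tacr1 was high in the tissue with more Tac1, and Cckbr in that with more Cck. Not every pair matched in this way, as Penk was higher in striatum and its receptor Oprd1 did not pass. Among somatostatin receptors Sstr1 (-1.62, SE 0.38, adjusted p up to 0.0785 without cortex replicate 1), Sstr3 (-1.93, SE 0.47, up to 0.0679 without cortex replicate 3) and Sstr4 (-1.59, SE 0.44, up to 0.181 without cortex replicate 1) were all lower in striatum. The dynorphin receptor Oprk1 was higher (1.53, SE 0.39, up to 0.0994 without cortex replicate 3), the enkephalin receptor Oprd1 did not pass (-0.27, SE 0.27), and Oprm1 fell below the minimum.

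Dopamine is made by midbrain neurons whose cell bodies lie in neither tissue. Besides Drd1 and Drd2, the decarboxylase Ddc was the member of the dopamine list that passed (1.5, SE 0.37, adjusted p up to 0.0869 without cortex replicate 1), so 3 of 8 were higher. Th, the first enzyme of dopamine synthesis, stood at 3.03, 1.73 and 1.40 RPKM in striatum and 1.71, 1.25 and 0.777 RPKM in cortex and did not pass (log2 difference 0.76, SE 0.47, adjusted p = 0.28). The dopamine transporter Slc6a3 was below the minimum in both tissues. Maoa and Maob, which break dopamine down, did not pass (0.61 and 0.66). Of 3 genes tested on a list of midbrain dopamine neurons Ddc alone was higher (none without any 1 of the cortical libraries), and 1 was lower without striatum replicate 1.

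Behind the receptors, members of 1 family went opposite ways in the cyclic AMP pathway: of 43 genes 18 were higher in striatum and 10 lower (6 lower without cortex replicate 1), with a median of 0.52. The adenylyl cyclase Adcy5 stood at 197, 122 and 191 RPKM in striatum and 29.97, 19.9 and 28.7 RPKM in cortex (log2 difference 2.74, SE 0.20, adjusted p = 9.42e-05). Adcy1 stood at 28.2, 16.3 and 14.6 RPKM in striatum and 77.2, 68.0 and 62.7 RPKM in cortex (log2 difference -1.78, SE 0.24, adjusted p = 0.00149). Adcy8, a calcium-activated cyclase like Adcy1, stood at 1.26, 0.579 and 0.969 RPKM in striatum and 4.96, 4.54 and 4.72 RPKM in cortex (log2 difference -2.33, SE 0.25, adjusted p = 0.000439). Of the summed RPKM of 7 cyclases (Adcy1, Adcy2, Adcy3, Adcy5, Adcy6, Adcy8 and Adcy9), Adcy5 took 74.2% ± 3.77 in striatum and 15.4% ± 2.76 in cortex (SD, n = 3). Adcy1 took 8.65% ± 2.29 and 40.9% ± 1.78. Adcy2 (-1.29, SE 0.20) and Adcy6 (-1.75, SE 0.26) were lower in striatum and Adcy3 did not pass (0.37, SE 0.20).

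The enzymes that remove and read cyclic AMP were split too. Pde10a and Pde1b together took 69.0% ± 3.61 of the RPKM of 9 phosphodiesterases in striatum and 25.1% ± 4.13 in cortex. Pde1b stood at 366, 208 and 457 RPKM in striatum and 54.6, 32.7 and 50.8 RPKM in cortex (log2 difference 2.93, SE 0.26, adjusted p = 0.000181), and its relative Pde1a at 24.9, 11.3 and 9.07 and 51.6, 37.6 and 43.3 RPKM (log2 difference -1.52, SE 0.31, adjusted p = 0.0102, up to 0.0573 without cortex replicate 1). Pde7b (2.62, SE 0.23) and Pde4b (1.24, SE 0.22) were higher in striatum and Pde4a lower (-1.34, SE 0.25). Among regulatory subunits of protein kinase A, Prkar2b was higher (1.75, SE 0.25), Prkar1b lower (-1.10, SE 0.22) and Prkar1a did not pass (0.17, SE 0.20). Prkar2b took 21.3% ± 4.32 of the 4 subunits' RPKM in striatum and 6.76% ± 0.261 in cortex. The olfactory-type G protein subunit Gnal (2.04, SE 0.22), its partner Gng7 (3.00, SE 0.29) and the G protein regulators Rgs9 (3.79, SE 0.29), Rgs2 (2.65, SE 0.24), Rgs8 (1.38, SE 0.18) and Rgs4 (1.34, SE 0.22) were higher, while the general subunits Gnai1, Gnai2 and Gnao1 did not pass (from -0.11 to 0.32). The catalytic subunits Prkaca (-0.64) and Prkacb (0.52) did not pass either.

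**Figure D3:**
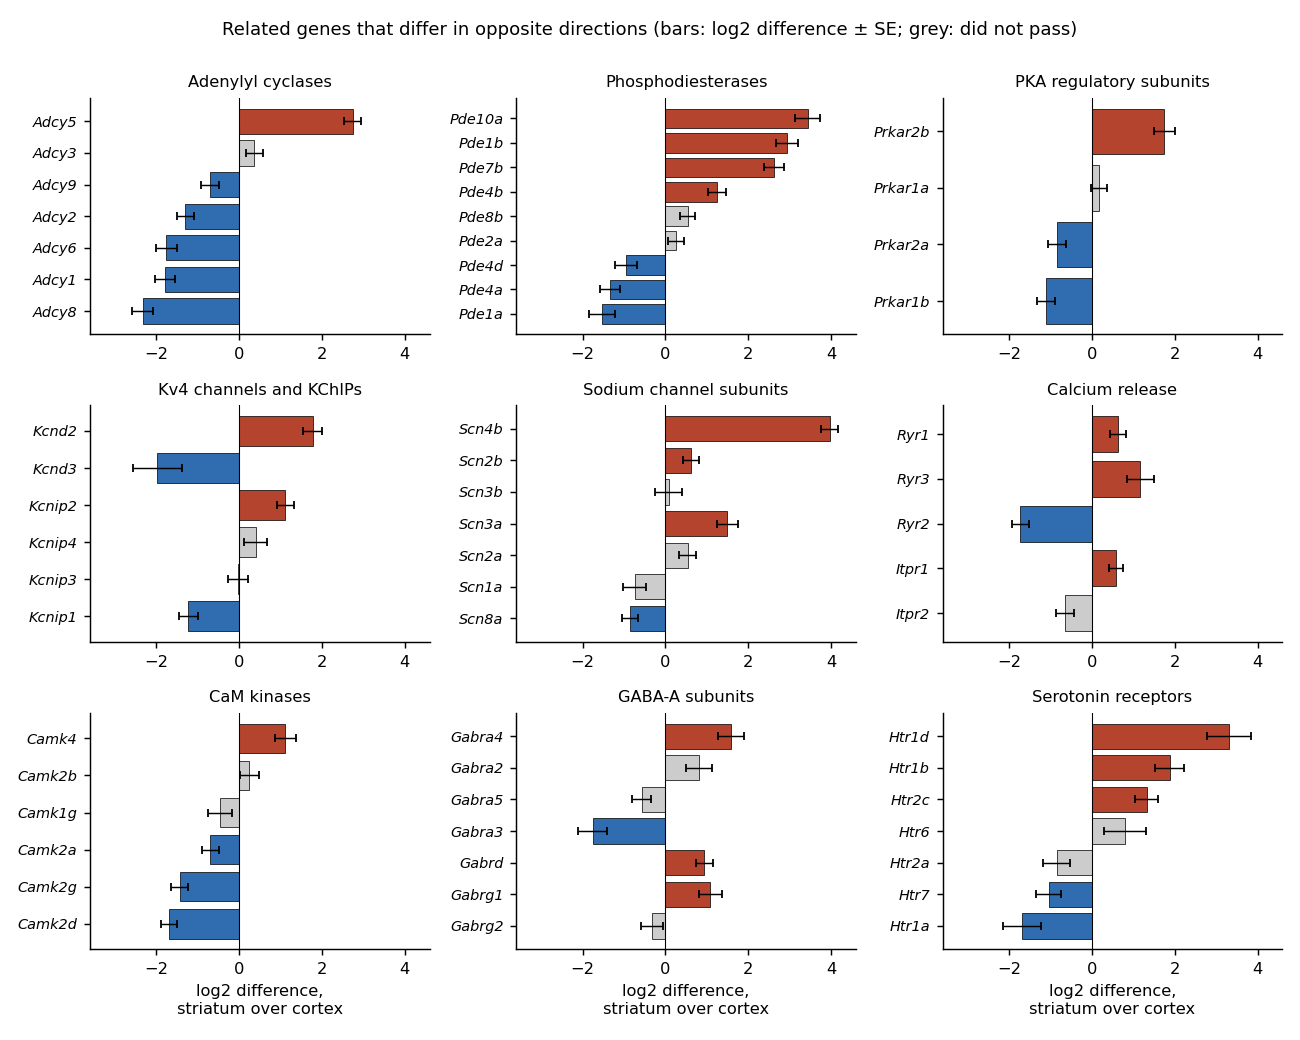
Log2 difference, striatum over cortex, with its SE, for members of 9 gene families, with red for higher and blue for lower in striatum among those that passed and grey for those that did not. Each family holds members on both sides, such as Adcy5 (2.74) against Adcy8 (-2.33), Kcnd2 (1.77) against Kcnd3 (-1.97), and Ryr3 (1.17) against Ryr2 (-1.73). Among the coloured bars, those of 10 genes whose calls the text does not state, Adcy9 and Scn2b included, stand for calls lost with 2 to 5 of the 6 libraries left out in turn.

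Receptors for fast transmitters differed in single subunits. Of 22 glutamate receptor genes 3 were higher and 4 lower, with a median of -0.07, where 10.1% of all genes were higher and 9.95% lower. Those higher were 0 without cortex replicate 1 or 2, 1 without cortex replicate 3 or striatum replicate 3 and 5 without striatum replicate 1, and those lower 2 without cortex replicate 1, cortex replicate 3 or striatum replicate 3. Grin2a, an NMDA receptor subunit, stood at 1.24, 1.04 and 0.522 RPKM in striatum and 4.64, 3.998 and 4.09 RPKM in cortex (log2 difference -2.11, SE 0.34, adjusted p = 0.00349). Grin2b stood at 18.6, 21.4 and 14.4 RPKM in striatum and 22.5, 27.8 and 22.1 RPKM in cortex and did not pass (log2 difference -0.33, SE 0.27, adjusted p = 0.41). Grin2a made up 4.80% ± 1.39 of the pair's RPKM in striatum and 15.1% ± 2.31 in cortex. The kainate receptor subunit Grik1 was lower (-2.50, SE 0.31) and Grik2 higher (1.42, SE 0.32, adjusted p up to 0.0833 without cortex replicate 1), and the AMPA subunits Gria1 to Gria4 did not pass (from -0.23 to 0.70). The NMDA subunit Grin2d (-2.27, SE 0.54, up to 0.106 without cortex replicate 1) and the kainate subunit Grik4 (-1.33, SE 0.31, up to 0.0791 without cortex replicate 3) were lower. The metabotropic receptor Grm5 (0.82, SE 0.26, up to 0.177 without cortex replicate 1) was higher.

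Of 14 GABA receptor genes 3 were higher and 2 lower, where 10.1% and 9.95% of all genes were. Without cortex replicate 1 or 3, 1 was higher. Those lower were 1 without cortex replicate 1 and 4 without striatum replicate 2. Gabra4, a subunit of extrasynaptic receptors, stood at 39.9, 70.1 and 54.4 RPKM in striatum and 19.3, 22.1 and 17.3 RPKM in cortex (log2 difference 1.59, SE 0.31, adjusted p = 0.00853, up to 0.0584 without cortex replicate 1). It made up 53.1% ± 4.90 (SD, n = 3) in striatum and 30.5% ± 3.04 in cortex of the summed RPKM of Gabra2, Gabra3, Gabra4 and Gabra5. Its partner Gabrd was higher too (0.94, SE 0.21, up to 0.0708 without cortex replicate 3). Gabbr2, a subunit of the metabotropic GABA receptor, stood at 21.7, 9.52 and 7.39 RPKM in striatum and 65.0, 50.6 and 56.7 RPKM in cortex (log2 difference -2.14, SE 0.33, adjusted p = 0.00278). Its obligate partner Gabbr1 did not pass (0.18, SE 0.18). Among other subunits Gabra3 (-1.75, SE 0.35, up to 0.053 without cortex replicate 1) was lower and Gabrg1 (1.09, SE 0.28, up to 0.121 without cortex replicate 1) higher.

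Receptors for the slower modulators had 7 of 24 members higher and 7 lower (1 lower without cortex replicate 1 and 3 without cortex replicate 2, cortex replicate 3 or striatum replicate 3). Htr1b, a serotonin receptor, stood at 8.83, 3.88 and 5.11 RPKM in striatum and 1.90, 1.16 and 1.85 RPKM in cortex (log2 difference 1.88, SE 0.35, adjusted p = 0.007). Htr1d differed more (3.32, SE 0.53), and Htr1a (-1.68, SE 0.46, up to 0.104 without cortex replicate 3) was lower. Among noradrenaline receptors Adra2c was higher, at 20.2, 8.51 and 16.6 RPKM in striatum and 5.19, 3.82 and 4.36 RPKM in cortex (log2 difference 1.77, SE 0.24, adjusted p = 0.00156), and Adra1d lower, at 1.10, 0.533 and 0.344 and 11.5, 8.01 and 6.52 RPKM (log2 difference -3.69, SE 0.41, adjusted p = 0.000567). Adra1b was lower too (-2.33, SE 0.53, up to 0.0704 without cortex replicate 1). Of the muscarinic receptors Chrm4 was higher, Chrm3 lower (-1.90, SE 0.40, up to 0.0608 without cortex replicate 1) and Chrm1 did not pass (-0.10, SE 0.18). The cannabinoid receptor Cnr1 was higher (1.03, SE 0.20), a call that did not pass in a fit over all 12 wild-type libraries (adjusted p = 0.0955), and Adora1, the adenosine receptor found widely in brain, did not pass (-0.01, SE 0.19).

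Among potassium channels 7 of 33 were higher and 8 lower (14 lower without striatum replicate 2, 4 without cortex replicate 1 and 5 without cortex replicate 2). Kcnd2, which carries a fast transient current, stood at 47.2, 58.8 and 54.3 RPKM in striatum and 17.4, 17.2 and 15.0 RPKM in cortex (log2 difference 1.77, SE 0.24, adjusted p = 0.00147), and took 96.5% ± 2.00 of the RPKM of the pair with Kcnd3 in striatum against 65.8% ± 6.63 in cortex. Kcnd3 was lower (-1.97, SE 0.59, up to 0.184 without cortex replicate 1). The auxiliary subunit of these channels Kcnip2 was higher (1.11, SE 0.21) and Kcnip1 lower (-1.23, SE 0.23). Kcna4 (2.44, SE 0.25), Kcnk2 (1.85, SE 0.24) and the auxiliary subunit Kcnab1 (3.06, SE 0.26) were higher. The G protein gated channel genes Kcnj3 (-2.62, SE 0.49) and Kcnj9 (-1.49, SE 0.22), the fast delayed rectifier Kcnc2 (-1.84, SE 0.41, up to 0.0676 without cortex replicate 1) and the ether-a-go-go channel Kcnh7 (-2.27, SE 0.52, up to 0.0691 without cortex replicate 1) were lower.

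Of 27 sodium and calcium channel genes 7 were higher and 10 lower (4 and 2 without cortex replicate 1, 4 lower without striatum replicate 3). Scn4b took 79.3% ± 0.586 (SD, n = 3) in striatum and 26.3% ± 0.532 in cortex of the summed RPKM of Scn2b, Scn3b and Scn4b, which encode sodium channel beta subunits. Scn3a was higher (1.5, SE 0.26) and Scn2a did not pass (0.54, SE 0.21). Cacna1g, a T-type calcium channel, stood at 1.80, 0.572 and 0.454 RPKM in striatum and 12.9, 8.32 and 8.15 RPKM in cortex (log2 difference -3.37, SE 0.44, adjusted p = 0.00129). The other T-type genes Cacna1h (-0.19, SE 0.31) and Cacna1i (0.03, SE 0.27) did not pass. Cacna1a was lower (-1.39, SE 0.20), and the auxiliary subunits Cacna2d2 (1.30, SE 0.26, up to 0.0607 without cortex replicate 1), Cacna2d3 (1.69, SE 0.19) and Cacng4 (1.96, SE 0.30) were higher.

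Genes that release, sense or act on calcium were higher in 9 of 27 cases and lower in 9 (5 higher without cortex replicate 1 or striatum replicate 3). Ryr2 stood at 6.77, 4.85 and 4.68 RPKM in striatum and 18.4, 19.8 and 17.5 RPKM in cortex (log2 difference -1.73, SE 0.21, adjusted p = 0.000769). Ryr3 was higher (1.17, SE 0.33, up to 0.149 without cortex replicate 1). Ryr2 took 33.3% ± 7.20 of the 3 ryanodine receptors' RPKM in striatum and 75.9% ± 5.39 in cortex. The kinases Camk2d (-1.69, SE 0.19) and Camk2g (-1.43, SE 0.20) were lower and Camk2b did not pass (0.25, SE 0.23). Hpca, the sensor hippocalcin, stood at 1224, 509 and 1367 RPKM in striatum and 232, 275 and 409.6 RPKM in cortex (log2 difference 1.75, SE 0.31, adjusted p = 0.00519), and its relative Vsnl1 was lower (-1.66, SE 0.31). The calcium pump Atp2b1 was higher (1.46, SE 0.25) and Atp2b4 lower (-2.10, SE 0.40). The calcineurin subunit Ppp3ca was higher (1.80, SE 0.25).

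Interneuron genes went both ways. The GABA-synthesising enzymes Gad1 (1.03, SE 0.20) and Gad2 (1.88, SE 0.27) and the vesicle transporter Slc32a1 (1.53, SE 0.22), which projection neurons of the striatum also use, were higher. Vip, a marker of a cortical interneuron class, stood at 6.56, 1.99 and 1.77 RPKM in striatum and 18.8, 16.4 and 11.7 RPKM in cortex (log2 difference -2.19, SE 0.43, adjusted p = 0.00877), and Pvalb was lower too (-1.40, SE 0.33, adjusted p up to 0.0658 without cortex replicate 2). The serotonin receptor Htr3a (-2.67, SE 0.70, up to 0.122 without cortex replicate 3) and the potassium channel Kcnc2 (-1.84, SE 0.41, up to 0.0676 without cortex replicate 1) were lower as well. Calb2, lower too, is given below with the thalamic genes, whose list it is also on. Chodl, a marker of long-range inhibitory neurons, was higher (2.88, SE 0.57). Of the 17 genes 5 were higher and 5 lower (2 lower without cortex replicate 3 or striatum replicate 3, 3 without cortex replicate 1).

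Myelin genes were higher in striatum in 12 of 14 cases, with a median of 1.29 (7 of 14 without any 1 of the cortical libraries, 14 without striatum replicate 2). Cldn11, a tight junction protein of the myelin sheath, stood at 132, 104 and 117 RPKM in striatum and 45.8, 29.4 and 33.1 RPKM in cortex (log2 difference 1.77, SE 0.20, adjusted p = 0.000582). Mal stood at 149.6, 115 and 151 RPKM in striatum and 43.9, 33.6 and 46.2 RPKM in cortex (log2 difference 1.80, SE 0.18, adjusted p = 0.000332). Both tissues gave tight and separate groups. Ermn (1.75, SE 0.21), Mog (1.38, SE 0.22), Ugt8a (1.64, SE 0.33, up to 0.0539 without cortex replicate 1), Aspa (1.31, SE 0.22) and Opalin (1.27, SE 0.35, up to 0.105 without cortex replicate 2) were higher too, and Mobp (0.82, SE 0.35) and Fa2h (1.00, SE 0.33) did not pass. The summed level of the 14 genes was 1806 to 2539 RPKM in striatum and 666 to 981 RPKM in cortex, and none was at 0. Genes of oligodendrocyte precursors did not follow: 1 of 7 was lower, the matrix protein Tnr (-1.44, SE 0.25).

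Of 12 microglial genes 4 were higher, where 10.1% of all genes were (1 without cortex replicate 1, and 2 without cortex replicate 2, cortex replicate 3 or striatum replicate 3), led by P2ry12 at 25.7, 17.2 and 19.6 RPKM in striatum and 7.51, 9.55 and 10.8 RPKM in cortex (log2 difference 1.21, SE 0.22, adjusted p = 0.00591), with Itgam (1.09, SE 0.28, up to 0.116 without cortex replicate 1) and Siglech (0.94, SE 0.27, up to 0.162 without cortex replicate 1) among the others. The complement genes C1qa, C1qb and C1qc were near 0 (0.20, 0.13 and 0.00). Of 14 astrocyte genes 2 were lower, where 9.95% of all genes were: the glutamate transporter Slc1a2 (-1.35, SE 0.30, up to 0.0551 without cortex replicate 3) and Fgfr3 (-0.71, SE 0.21, up to 0.175 without cortex replicate 3). Without striatum replicate 1 there were 4, without cortex replicate 1, cortex replicate 2 or striatum replicate 3 1, and without cortex replicate 3 none, and without striatum replicate 2 1 gene was higher. The other astrocyte glutamate transporter Slc1a3 (0.06, SE 0.22) and the water channel Aqp4 (-0.38, SE 0.17) did not pass. None of 12 vessel genes passed in either direction in edgeR, with 3 lower at an unadjusted p under 0.05, 2 lower in DESeq2 and 2 lower without striatum replicate 1 or 2.

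Markers of neighbouring tissue included those of the lining of the ventricle that borders the striatum. The 2 choroid plexus genes above the minimum were both higher in striatum, Ttr at 6.32, 16.7 and 21.2 RPKM against 0.880, 2.17 and 2.70 RPKM in cortex (log2 difference 3.04, SE 0.56, adjusted p = 0.00667, and 0.0508 in a fit over all 12 wild-type libraries) and Clic6 (3.68, SE 0.36). The other 6 markers, Folr1 and Kl among them, lay under the minimum, and the list summed to 10.2 to 27.8 RPKM in striatum and 1.73 to 3.70 RPKM in cortex. Of 3 ependymal genes Ccdc153 was higher (4.05, SE 1.23, adjusted p up to 0.179 without cortex replicate 1). Of 7 thalamic genes 2 were lower, Calb2 (-2.27, SE 0.54, up to 0.0883 without cortex replicate 3) and Ntng1 (-1.16, SE 0.36, up to 0.212 without cortex replicate 3), and the list (4 lower without striatum replicate 2, 1 without cortex replicate 1, cortex replicate 2 or striatum replicate 1, none without cortex replicate 3 or striatum replicate 3) summed to 12.7 to 18.6 RPKM in striatum and 27.8 to 54.7 RPKM in cortex. Calb2 is also on the interneuron list, where it counted among the lower genes. The hypothalamic peptides Hcrt, Pmch, Avp and Oxt lay under the minimum. No gene of meninges (7 tested) or blood (2 tested) passed in edgeR, with 2 meningeal genes lower at an unadjusted p under 0.05 and 1 in DESeq2, and 1 meningeal gene was lower in edgeR without striatum replicate 2 or 3. The part of ventricular lining in the other results was not tested.

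The list for methylation of histone H3 at lysine 4, the subject of the study, held enzymes and other proteins of the methylating complexes. Of its 15 genes tested, Setd1a was lower, at 7.13, 4.55 and 5.33 RPKM in striatum and 9.82, 8.84 and 10.6 RPKM in cortex (log2 difference -0.74, SE 0.19, adjusted p = 0.0214, up to 0.0914 without cortex replicate 3). The other 14 did not pass (5 were lower without striatum replicate 2, none without any 1 of the other libraries but striatum replicate 1). The demethylases Kdm1a, Kdm5b and Kdm5c lay within -0.14 to 0.11. Of 7 genes tied to Huntington's disease 3 were lower, where 9.95% of all genes were (5 without striatum replicate 2, 1 without cortex replicate 2 or striatum replicate 3, none without cortex replicate 1 or 3). Mouse Htt stood at 6.62, 6.78 and 4.49 RPKM in striatum and 14.6, 9.65 and 10.3 RPKM in cortex (log2 difference -0.86, SE 0.26, adjusted p = 0.0464, up to 0.193 without cortex replicate 1). Bdnf, a growth factor that cortical neurons supply to striatum, stood at 3.56, 2.05 and 0.814 RPKM in striatum and 7.27, 8.58 and 6.08 RPKM in cortex (log2 difference -1.74, SE 0.44, adjusted p = 0.0224, up to 0.079 without cortex replicate 1). Both genes had every striatal library below every cortical one, as did 19.7% of all genes tested. Ppargc1a, a coactivator of mitochondrial genes, was lower too (-0.99, SE 0.24, up to 0.104 without cortex replicate 1).

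Of 19 activity-induced genes 1 was higher and 4 lower, where 10.1% and 9.95% of all genes were. None was higher without cortex replicate 1 or 3, and 2 were without striatum replicate 1. Those lower were also counted with 1 library left out (8 without striatum replicate 2, none without cortex replicate 1, 1 without cortex replicate 2 or striatum replicate 3, 2 without cortex replicate 3). Arc stood at 46.8, 27.6 and 25.6 RPKM in striatum and 62.7, 68.9 and 62.7 RPKM in cortex (log2 difference -0.93, SE 0.23, adjusted p = 0.0212, up to 0.0755 without striatum replicate 3), and Fos (-0.52, SE 0.29), Egr1 (0.18, SE 0.25) and Npas4 (-0.43, SE 0.50) did not pass. Nptx2 (-1.15, SE 0.34, up to 0.199 without cortex replicate 1) and Egr3 (-1.04, SE 0.29, up to 0.162 without cortex replicate 1) were lower too, and Inhba, an activin subunit, was higher (1.45, SE 0.36, up to 0.109 without cortex replicate 1). Of 16 clock genes 2 were lower, where 9.95% of all genes were, Per3 (-1.04, SE 0.22, up to 0.0657 without cortex replicate 1) and Rorb (-1.47, SE 0.32, up to 0.0573 without cortex replicate 2), with 1 lower without cortex replicate 1 or 2 and 3 higher without striatum replicate 2. Rorb is also on the lists of upper layers and of cortical transcription factors. Arntl, Clock, Per1 and Per2 lay within -0.19 to -0.03. None of 14 cholesterol synthesis genes passed in either direction in edgeR, with 1 higher at an unadjusted p under 0.05, 1 higher in DESeq2, and 1 higher and 1 lower without striatum replicate 1.

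At 8 weeks, in other libraries, fewer genes passed: 216 higher (1.88%) and 206 lower (1.79%) of 11479 tested, 3.68% in either direction. The 8-week libraries held 7089261 to 29250440 counts in genes. Of the 1161 genes higher at 12 weeks and tested at both ages, 170 were also called higher at 8 weeks, which is 14.6% of the 12-week genes and 84.2% of the 202 called at 8 weeks. Of 1129 lower genes 149 were called lower at both ages (13.2% and 73.0% of the 204), and 6 were called in the opposite direction. The sign was the same at 8 weeks for 80.2% of the genes higher and 76.9% of the genes lower at 12 weeks, and for 60.3% of all genes tested at both ages. Without cortex replicate 1, 2 or striatum replicate 3 of that age, the 8-week counts fell to 54 and 35, 85 and 57, and 55 and 18. Without striatum replicate 1 they rose to 484 and 473, and without striatum replicate 2 they were 84 and 43.

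By group, striatal projection neuron genes had the same sign at 8 weeks in 26 of 26 cases, with 23 called (median 2.79). Cortical excitatory genes had it in 15 of 16, with 5 called lower (median -2.52). Slc17a7 differed by -4.21 at 8 weeks, Drd1 by 3.12 and Adora2a by 4.80. Arpp19, a phosphatase regulator, was the shared striatal gene whose 8-week difference was smallest (0.35, against 2.26 at 12 weeks). The 14 myelin genes were all positive at 8 weeks with a median of 0.76 and none passed. The 4 microglial genes higher at 12 weeks lay between -0.30 and 0.06 at 8 weeks. In the test between the ages given next, neither Arpp19 nor any gene of the myelin and microglial lists passed.

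The tissue difference itself was compared between the ages by an interaction term over the 12 wild-type libraries. Of 11639 genes tested, 48 passed (0.412%), all with a more negative difference at 12 weeks. At an unadjusted p under 0.05 the difference was more positive for 889 genes and more negative for 807, and DESeq2 called 42 and 242. Of these 48, 35 were lower in striatum at 12 weeks without a call at 8 weeks, and 6 were lower at 12 weeks and higher at 8 weeks. Dennd6b, a regulator of membrane traffic, stood at 4.29, 2.50 and 3.35 RPKM in striatum and 11.5, 9.17 and 10.0 RPKM in cortex at 12 weeks, and at 4.17, 3.85 and 3.19 and 2.57, 2.82 and 3.46 RPKM at 8 weeks (difference -1.56 at 12 weeks and 1.04 at 8, interaction adjusted p = 0.00239). Leng8 stood at 10.5, 11.2 and 12.1 RPKM in striatum and 48.3, 33.1 and 40.3 RPKM in cortex at 12 weeks, and at 9.58, 14.8 and 13.3 and 9.80, 7.16 and 8.48 RPKM at 8 weeks (interaction adjusted p = 0.00431). The RPKM of all genes differed between the ages in striatum, and the levels of the 48 genes are given beside it. The median ratio of 12-week to 8-week RPKM over the 48 genes was 3.41 in cortex and 0.984 in striatum, against 1.03 in cortex and 1.59 in striatum over all genes tested. By these medians the 48 were higher at 12 weeks in cortex. In striatum they were near the same level at both ages, and lower at 12 weeks only relative to all genes. All 3 cortical libraries of 12 weeks lay above all 3 of 8 weeks for 44 of the 48 genes, which were chosen on these libraries, and for 10.2% of all genes tested. All 3 striatal libraries of 12 weeks lay below all 3 of 8 weeks for 9 of the 48, and for 83 of the 11639 genes tested. The 48 genes had a median GC content of 56.6%, against 49.8%.

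The interaction count also changed with the library left out. Leaving out striatum replicate 1 of 8 weeks gave 267 genes with a larger and 387 with a more negative difference at 12 weeks, and leaving out any other 1 of the 12 gave 11 to 66 in all. That library had 42.9% of its sequencing total in genes, against 26.9% and 25.9% in the other 2 striatal libraries of 8 weeks and 44.2 to 59.7% in the rest of the 12. The part of these shares and of GC content in the interaction was not tested. Title numbers of the tissues share a range at 8 weeks and lie in separate ranges at 12 weeks. What they mark therefore cannot be told apart from a change of the tissue difference with age.

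**Figure D4:**
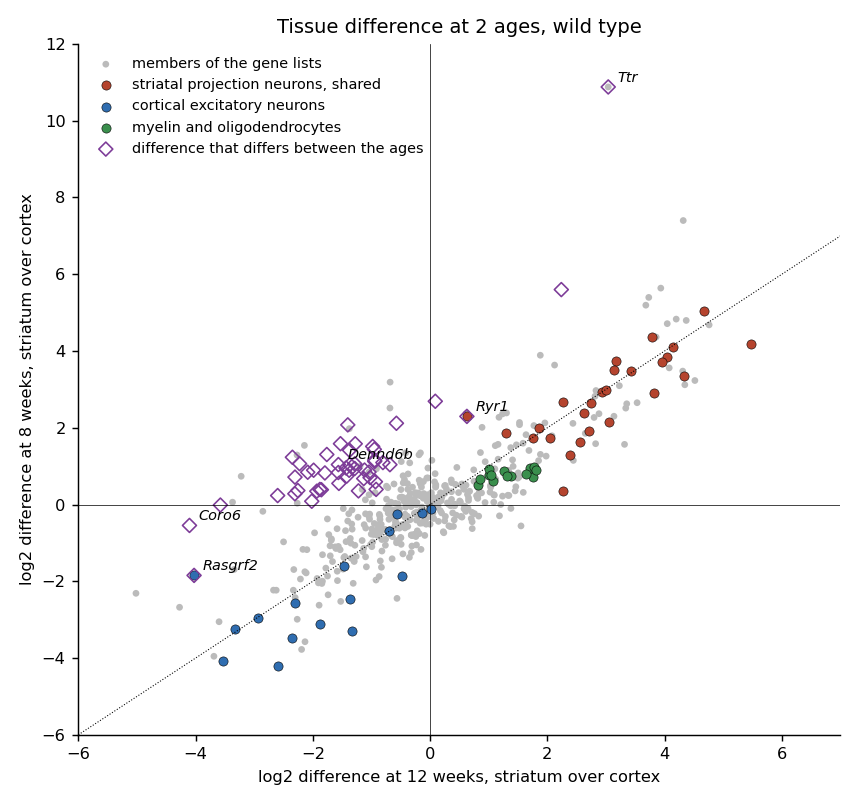
Log2 difference, striatum over cortex, at 12 weeks (horizontal) and 8 weeks (vertical) for list members tested at both ages, with shared striatal genes in red, cortical excitatory genes in blue, myelin genes in green and open diamonds for the 48 genes whose difference differed between the ages. Most list members lie near the dotted line of equal difference, myelin genes lie below it, and most diamonds lie at negative values at 12 weeks and at or above 0 at 8 weeks.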

How the data were processed

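Polyadenylated RNA of brain tissue was sequenced, and the authors deposited 1 file per library with whole-number counts per gene, gene length and RPKM. The submitters' processing notes name the aligner Bowtie, the package DESeq and the genome build mm9. Their versions, the counting rule and the use of strand are not given in the labels, so overlapping and antisense genes and near-identical copies cannot be told apart. The deposited counts were used as they stand, with no row that names no gene. Deposited RPKM values, the levels printed here, differed by at most 0.005 between the library files and the series tables.

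Genes averaging 0.5 RPKM or more across the 6 libraries were tested in edgeR 4.0.16 (R 4.3.3; TMM, quasi-likelihood test, two-sided). Benjamini-Hochberg adjustment was over all of them, with a threshold of 0.05. A prior count of 2 was set for the log2 values behind the principal components and the GC and length relations. It was not set for the test. Alternatives were DESeq2 1.42.0, RLE scaling, the library total implied by the RPKM, other filters, limma 3.58.1 on log2(RPKM + 0.5) or log2(RPKM + 0.1), all 12 wild-type libraries in 1 fit, removal of GC and length trends, and leaving out each library. The wild-type libraries of 8 weeks were tested the same way.

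On simulated counts with 200 changed genes, the 12-week comparison recovered 85% of 4-fold and 19% of 2-fold changes (8.0% of calls false), and the 8-week comparison 75% and 2% (4.9% false). Fewer genes changed there than were called in the data, so these rates hold for the simulation only. Counts of any pair of 12-week libraries of a group differed by more than sampling noise, so none was treated as a copy of another. Symbols were matched to RefSeq for 18594 of 18669 IDs, and promoter windows (GRCm38.p6) for 14793.

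The genes named are the 12 largest rises and falls with groups that do not overlap and at least 5 RPKM in the higher tissue, up to 8 called members of each list in order of size, members that did not pass or went against their list, and the 8 interaction genes with the smallest adjusted p. Other members were named after their values were seen, to complete families. The comparison, members and lists were chosen with earlier results of these data known. Of the lists, 23 genes had no row and are not analysed here, and 51 entries lay under the RPKM minimum. A few genes that this rule would name are not reported here.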

Additional observations from a re-analysis of the deposited data

Results flagged for a closer look

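The difference between striatum and cortex itself differed between 8 and 12 weeks for 48 genes by the interaction test in edgeR, each with a more negative difference at 12 weeks. Of those with the smallest adjusted p, 7 are given first, as the interaction on the log2 scale. They were Dennd6b (-2.58), the lymphoid adaptor Lime1 (-2.76), the histone deacetylase Hdac7 (-2.85), Leng8 (-3.04), the matrix protease Adamts10 (-3.27), Lrrc45 (-2.32) and the complement factor Cfp (-3.09). Lime1 and Leng8 passed under all 16 alternatives and the other 5 under 15 of 16, with a largest adjusted p of 0.0642. None of the alternatives separates age from the title numbers, which lie in separate ranges for the tissues at 12 weeks only.

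Of the listed genes and the largest falls, 5 were among the 48. Coro6 had a much more negative difference, striatum over cortex, at 12 weeks than at 8 (interaction -3.53; -4.10 and -0.54) and passed under 15 of 16 alternatives. Its mean level was 1.13 RPKM in striatum and 20.2 RPKM in cortex at 12 weeks, and 1.96 and 4.38 RPKM at 8 weeks. Per3, a clock gene, was lower in striatum than in cortex at 12 weeks, and its difference had the opposite sign at 8 (interaction -1.87; -1.04 and 0.85). Ryr1 had a smaller rise at 12 weeks than at 8 (interaction -1.65; 0.63 and 2.30), and Rasgrf2 a larger fall (interaction -2.15; -4.03 and -1.85). Per3 passed under 8 of 16 alternatives, Ryr1 under 6 and Rasgrf2 under 5.

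Ttr, the choroid plexus transport protein, had an interaction of -7.82 (3.04 at 12 weeks and 10.88 at 8) and passed under 4 of 16 alternatives. Its level at 8 weeks was 575 ± 711 in striatum and 0.553 ± 0.436 RPKM in cortex (mean ± SD, n = 3), so the 8-week striatal libraries differed from each other by more than their mean.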

How the results depend on the processing

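At 12 weeks the counts of genes higher and lower stayed within 1.5 times the reported ones under each of the 9 alternatives other than leaving out a library. Leaving out 1 library gave 360 to 1545 higher and 369 to 1806 lower. Of 2261 values of the 253 named genes under those 9 alternatives none reversed a call, 94 called values no longer passed and 18 that had not passed did. In the fit over all 12 wild-type libraries Cnr1, Lmo3, Neurod1 and Ttr, which kept their call with each library left out, did not pass (adjusted p = 0.0955, 0.0729, 0.106 and 0.0508), and the cause was not tested. Lrrc45 did not pass with GC and length trends removed (adjusted p = 0.0584). Members of the lists kept their sign under RLE scaling, and the members whose sign changed with the library total (8) or with GC and length trends removed (53) were not called.

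At 8 weeks DESeq2 called 524 higher and 551 lower, and limma on log2(RPKM + 0.5) called 1548 lower while the median of all genes moved from 0.02 to -0.60. The median of the limma fit was not removed, and the cause of the shift was not tested. Leaving out 1 library gave 54 to 484 higher and 18 to 473 lower. The interaction was called for 284 genes in DESeq2 and 5 in limma, and for 11 to 654 with 1 library left out.

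No paired analysis was possible at 12 weeks because the title numbers of the tissues do not overlap. At 8 weeks 2 of the title numbers occur in both tissues, and with the title number as a replicate block 132 genes were lower, against 206 without it, while the count of higher genes stayed within 1.5 times. The labels do not say what the numbers mark.

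The comparisons rest on 3 libraries a tissue, and the shallowest 8-week striatal libraries held 7089261 and 7121060 counts in genes. On simulated counts of these depths 2-fold changes were recovered in 19% of cases at 12 weeks and 2% at 8 weeks. The simulation changed 200 genes, while 2352 were called in the data at 12 weeks and 422 at 8 weeks. The Benjamini-Hochberg cutoff depends on how many genes change, so these rates are not those of the data. After the data were seen, the called members of each list were also counted without striatum replicate 1 and without replicate 2, with the values beside each list where they moved by over 1.5 times.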

Other observations

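Further genes shared by striatal projection neurons had the pattern of their list. Rasgrp2, a Ras family exchange factor, stood at 62.1, 38.8 and 65.2 RPKM in striatum and 7.44, 4.30 and 7.22 RPKM in cortex (log2 difference 3.17, SE 0.24, adjusted p = 9.64e-05). Ptpn5, the striatum-enriched tyrosine phosphatase, stood at 198, 112 and 214 RPKM in striatum and 59.2, 39.0 and 49.1 RPKM in cortex (log2 difference 1.86, SE 0.21, adjusted p = 0.000643). Strip2 (2.70, SE 0.31), the sarcomeric actinin Actn2 (2.26, SE 0.25) and the formin Inf2 (1.30, SE 0.22) were higher too. Replicate 2 was the lowest striatal library for Rasgrp2, Ptpn5, Actn2 and Inf2 and not for Strip2.

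The precursors Pnoc (nociceptin) and Tac2 (neurokinin B) were low in every 12-week library and did not pass, at 1.08, 0 and 0.274 and 1.31, 1.66 and 0.550 RPKM in striatum and 2.28, 1.44 and 2.03 and 4.16, 2.36 and 3.33 RPKM in cortex. Their differences had opposite signs at the ages, -2.14 and -1.38 at 12 weeks and 1.54 and 1.98 at 8. Neither gene was among those called by the interaction test.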
